A study of Mus musculus with 24 samples.

Results

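Heat shock proteins and their co-chaperones were followed in the lungs of mice without and with the TNF receptors. The list held 39 genes, and 36 of them had a probe set annotated to that gene alone, out of 12373 genes with such a probe set in the series. Where a gene had several, the probe set with the highest mean signal over all arrays stood for it. Of the 36, 35 passed the filter on low values and did so on all 24 arrays, so no member entered through 1 group alone. Hsf2, a heat shock transcription factor, was the exception: its signal ran between 0.565 and 35.8 with a median of 9.24, below the 20th percentile (47.3 to 59.4) on all 24 arrays. Hsp90ab1, Hsf1 and Ptges3 had no probe set of their own and were not analysed here.

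The arrays came from Tnfr-/- mice, which carry null alleles of both TNF receptor genes (Tnfrsf1a and Tnfrsf1b) on a B6.129S background, and from Tnfr+/+ mice of the strain C57BL/6J. Males of 6 to 8 weeks breathed 0.3 ppm ozone (O3) without a break for 24, 48 or 72 h, or filtered air. Each of the 8 groups held 3 mice with 1 array each. The labels give 1 air group per genotype without a duration, so that O3 and time in the chamber cannot be told apart against air. The deletion is not limited to a cell type, and both strains were bought rather than bred together, so that the alleles and the strain background cannot be told apart. RNA was taken from homogenized left lung, in which fewer cells of a type and less RNA per cell cannot be told apart.

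Heat shock proteins are chaperones that hold unfolded protein and help it to fold. HSP70 proteins bind short stretches of unfolded chain, J-domain proteins deliver the client and start the ATP cycle, HSP110 proteins exchange the nucleotide, and HSP90 with its co-chaperones finishes the folding of kinases and hormone receptors. Under heat, oxidants or other stress to proteins, the transcription factor HSF1 is released from chaperones, forms trimers and binds heat shock elements, which are repeats of a short unit read as GAA on one strand and TTC on the other. Many of these genes are also made in unstressed tissue, the lung included.

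Promoter sequence shows which of these genes carry the element near their start. RefSeq windows on GRCm38.p6, with 250 bases before and 50 after each annotated start, were found for 29 of the 35 members (none for Hspa8, Hspa9, Hsp90aa1, Cryab, Dnajc2 and Cct4). Both strands were searched for 2 adjoining units (GAANNTTC or TTCNNGAA) and for 3 (GAANNTTCNNGAA or TTCNNGAANNTTC), the second being made of overlapping matches to the first. At least 2 units stood in 16 of the 29 members (55.2%), beside 15.1% of all 32851 windows and 17.0% of the 27025 genes. A run of 3 units stood in 5 members, beside 0.603% of windows and 0.662% of genes. The 5 were Hsph1, Chordc1, Dnajb6, and the pair Hspd1 and Hspe1, whose windows share 285 bases because the genes start back to back. The matches of this pair are the same bases read on opposite strands. Of the 6 members with a window that were called lower in Tnfr-/- lungs at 24 h, 3 (50.0%) held at least 2 units, which is close to the share over all measured members. Shown are 100 bases from 6 members: the first 3 are the members called between genotypes at 24 h that hold a match, and the others carry 3 units or belong to the stress-inducible HSP70 genes. Capitals mark the matched letters, the 2 bases between units included.
Hsph1, chr5:149636288-149636387, minus strand, 72 bases before to 28 after the start: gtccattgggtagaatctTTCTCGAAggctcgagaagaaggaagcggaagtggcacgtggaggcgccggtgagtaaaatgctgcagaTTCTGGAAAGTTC
Chordc1, chr9:18292197-18292296, plus strand, 70 bases before to 30 after the start: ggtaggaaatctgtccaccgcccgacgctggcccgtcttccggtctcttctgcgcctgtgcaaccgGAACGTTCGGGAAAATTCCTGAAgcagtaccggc
Dnaja1, chr4:40722324-40722423, plus strand, from 144 to 45 bases before the start: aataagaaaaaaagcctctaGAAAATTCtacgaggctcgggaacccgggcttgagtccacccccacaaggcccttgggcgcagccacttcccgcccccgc
Hspe1, chr1:55088039-55088138, plus strand, from 109 to 10 bases before the start: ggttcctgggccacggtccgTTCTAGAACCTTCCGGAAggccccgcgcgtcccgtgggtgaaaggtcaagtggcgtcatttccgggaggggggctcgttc
Dnajb6, chr5:29735832-29735931, plus strand, from 147 to 48 bases before the start: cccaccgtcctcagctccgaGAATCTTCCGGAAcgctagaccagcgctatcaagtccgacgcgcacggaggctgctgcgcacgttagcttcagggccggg
Hspa1b, chr17:34959263-34959362, minus strand, from 124 to 25 bases before the start: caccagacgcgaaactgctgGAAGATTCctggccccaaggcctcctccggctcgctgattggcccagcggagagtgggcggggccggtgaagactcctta

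Of these 6, Chordc1 held the longest run, with 3 overlapping triples across its start and a further pair of units 34 to 41 bases after it, beyond the stretch shown. Hsph1 has a second annotated start, from which the same triple lies 37 to 49 bases downstream. Hspa1a has the same letters at the same place as Hspa1b, and their windows agree in 296 of 300 bases (98.7%). The genes are near-identical copies, and their probe sets may not separate them. A match is a description of letters and says nothing of what bound there in these lungs.

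**Figure D1:**
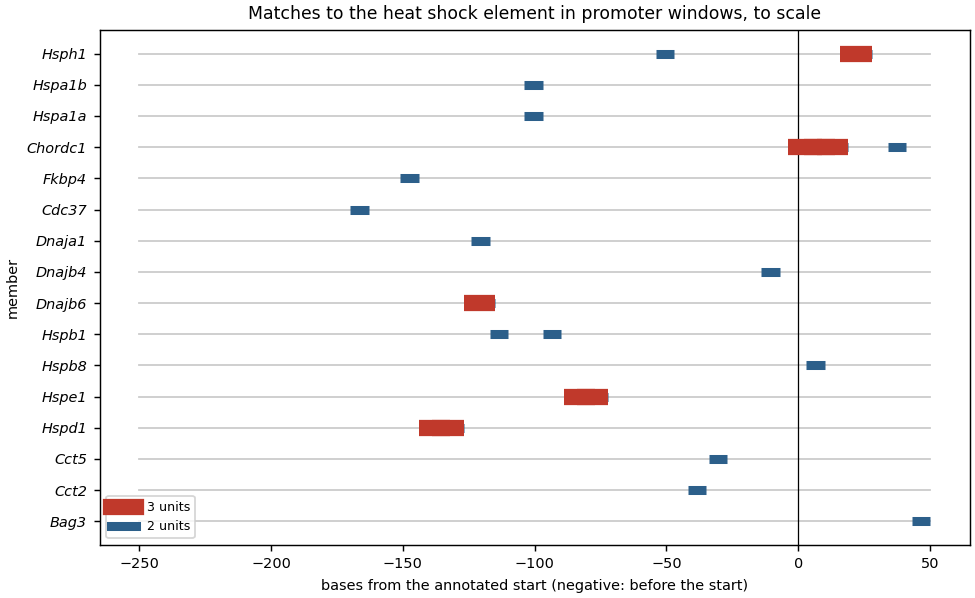
Position of each match to the heat shock element in the promoter windows of the 16 members that hold one, drawn to scale in bases from the annotated start (1 window per gene, grey line). Red blocks mark 3 units and blue blocks 2 units; red blocks stand at Hsph1, Chordc1, Dnajb6, Hspe1 and Hspd1.

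Tnfrsf1b, a deleted gene, had signals of 151 to 266 on the 12 Tnfr-/- arrays and 356 to 525 on the 12 Tnfr+/+ arrays at its brighter probe set (104 to 222 against 108 to 293 at the other), and Tnfrsf1a had 1400 to 2340 against 2030 to 3620; whether the probes fall inside the deleted exons was not known, so they check the labels only in part. The arrays were of similar brightness, with total signals between 14900000 and 16100000 and medians between 213 and 247, and all 8 lung markers (such as Sftpc and Scgb1a1) were bright on every array. The first Tnfr+/+ array after 72 h of O3 stood apart. Its Gapdh 3' to 5' signal ratio, a measure of RNA integrity, was 4.45 against 0.890 to 1.74 on the other 23. Its beta-actin 3' to 5' ratio was 1.18, within the 1.01 to 1.95 of the other 23. Its mean correlation with the other arrays was 0.909 against 0.933 to 0.947. Fold changes between genotypes at 72 h are given with and without this array for the members named. Other 72 h values that it enters, those in the figures among them, include it unless stated. Signals are quantile-normalized intensities, which can be compared between arrays for 1 probe set but not between genes. A member is called where the adjusted p of limma (Benjamini-Hochberg over 20537 probe sets) is under 0.05.

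After 24 h of O3, 8 of 35 members were called lower in Tnfr-/- than in Tnfr+/+ lungs and 0 higher. That is 22.9% of members, while 0.419% of all probe sets were called lower and 0.584% higher. In log2 fold change the median member was at -0.66, with a range from -2.68 to 0.46, against a median of -0.01 over all probe sets. All 3 Tnfr-/- arrays lay below all 3 Tnfr+/+ arrays in 24 members (68.6%), beside 11.1% of all probe sets, and above them in 2 (Hspa9 and Cdc37), beside 12% of all probe sets. At an unadjusted p of 0.05, 19 members were lower and 2 higher, beside 6.98% and 7.07% of all probe sets.

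**Figure D2:**
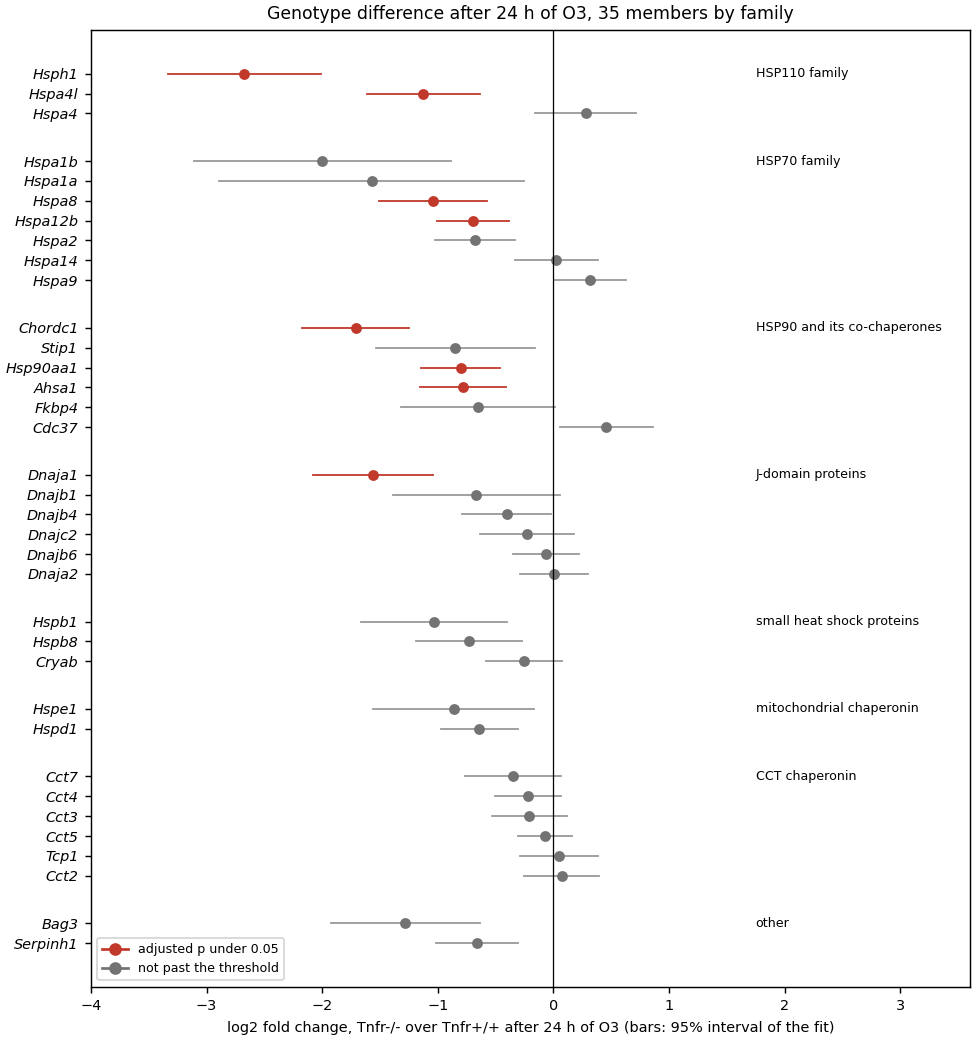
Log2 fold change of Tnfr-/- over Tnfr+/+ lungs after 24 h of O3 for the 35 members, by family (points), with the 95% interval of the fit (bars; 3 arrays a group). The 8 red members passed an adjusted p of 0.05 and all lie left of 0, from Hsph1 at -2.68 to Hspa12b at -0.69.

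In the HSP110 family, 2 of 3 members were called lower. Hsph1, the inducible nucleotide exchange factor of HSP70 that also holds unfolded protein in solution, had signals of 606, 926 and 1026 in Tnfr-/- lungs and of 5703, 7234 and 3637 in Tnfr+/+ lungs at 24 h. Every Tnfr-/- array was below every Tnfr+/+ array by a wide gap, and the difference was 6.39-fold (log2 -2.68 ± 0.32 SE, adjusted p = 0.000258). Its second probe set gave -1.99 (adjusted p = 0.00505). Hspa4l, a relative of Hsph1, had 455, 524 and 549 in Tnfr-/- lungs against 1259, 1270 and 850 in Tnfr+/+ lungs, again without overlap (log2 -1.12 ± 0.23, adjusted p = 0.0259). Hspa4, the constitutive member, was not called, at 918, 640 and 738 against 761, 575 and 554, where the groups overlap (log2 0.28, adjusted p = 0.587).

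Among 7 HSP70 members, 2 were called lower. Hspa8, the constitutive cytosolic HSP70, had 7831, 8698 and 9409 in Tnfr-/- lungs and 20260, 20260 and 13680 in Tnfr+/+ lungs, without overlap (log2 -1.04 ± 0.22, adjusted p = 0.0283). Its other bright probe sets gave -0.66 and -0.61, which did not pass (adjusted p = 0.175 and 0.0614), and a dim one gave 2.26 in the opposite direction (adjusted p = 0.0681), so that the mean over its probe sets showed no difference (log2 -0.02, adjusted p = 0.983). Hspa12b, a distant HSP70 relative of endothelial cells, had 247, 194 and 224 against 403, 328 and 345 (log2 -0.69 ± 0.15, adjusted p = 0.0264), the groups being close but separate.

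The stress-inducible pair stood far apart in the means but was not called. Hspa1b had 1431, 2703 and 2185 in Tnfr-/- lungs against 8947, 10670 and 5650 in Tnfr+/+ lungs (log2 -2.00 ± 0.53, adjusted p = 0.079), and its other probe sets gave -1.95 and -1.84. Hspa1a had 607, 1131 and 681 against 2744, 3322 and 1348 (log2 -1.57 ± 0.63, adjusted p = 0.259). In both genes the groups did not overlap at 24 h, but arrays of 1 group in air differed by several fold, as described below. Hspa2, an HSP70 best known from male germ cells, was at -0.68 (adjusted p = 0.0556). Hspa14, which works at the ribosome, was at 0.02, and Hspa9, the mitochondrial HSP70, at 0.31 with 989, 1012 and 1040 in Tnfr-/- lungs against 821, 871 and 757 in Tnfr+/+ lungs (adjusted p = 0.349).

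HSP90 and its co-chaperones held 3 called members of 6. Chordc1, a CHORD-domain protein that binds HSP90, had 525, 663 and 735 in Tnfr-/- lungs and 2308, 2449 and 1593 in Tnfr+/+ lungs, so that the brightest Tnfr-/- array reached less than the dimmest Tnfr+/+ one (3.28-fold, log2 -1.71 ± 0.22, adjusted p = 0.000551). Hsp90aa1, the inducible cytosolic HSP90, had 4726, 6351 and 5152 against 8698, 9672 and 9715 (log2 -0.80 ± 0.16, adjusted p = 0.0222); its other probe sets gave -0.67 and -0.54 and did not pass. Ahsa1, which speeds the ATPase of HSP90, had 1796, 1850 and 2314 against 3380, 4114 and 2816 (log2 -0.78 ± 0.18, adjusted p = 0.0409). All 3 showed separate groups. Stip1, the adaptor that joins HSP70 to HSP90, had 731, 714 and 653 against 1416, 1410 and 999, also separate but not called (log2 -0.85 ± 0.33, adjusted p = 0.239). Fkbp4, a co-chaperone of steroid receptors, was at -0.66, and Cdc37, which brings kinases to HSP90, at 0.46 (adjusted p = 0.364 and 0.279).

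Of 6 J-domain proteins, 1 was called lower. Dnaja1, a farnesylated partner of HSP70, had 2018, 2436 and 2349 in Tnfr-/- lungs and 7708, 7551 and 5112 in Tnfr+/+ lungs, with a gap between the groups wider than the spread in either (2.95-fold, log2 -1.56 ± 0.25, adjusted p = 0.00435). Its second probe set gave -1.21 (adjusted p = 0.0126). Dnajb1, the classical inducible HSP40, was at -0.67 and Dnajb4 at -0.40, both with separate groups but not called (adjusted p = 0.402 and 0.325). Dnajc2, Dnajb6 and Dnaja2 lay between -0.23 and 0.00.

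No small heat shock protein, mitochondrial chaperonin or subunit of the cytosolic CCT chaperonin was called at 24 h. Hspb1, the small heat shock protein HSP25, had 5971, 6655 and 5836 in Tnfr-/- lungs against 13970, 13850 and 10280 in Tnfr+/+ lungs (log2 -1.03 ± 0.30, adjusted p = 0.111), and Hspd1, the HSP60 of mitochondria, had 2830, 2741 and 3168 against 4934, 5145 and 3680 (log2 -0.64 ± 0.16, adjusted p = 0.0609). Both had separate groups. Hspb8 was at -0.73, the lens crystallin Cryab at -0.26 and the HSP10 gene Hspe1 at -0.86. The 6 CCT subunits, which fold actin and tubulin, ran from -0.35 (Cct7) to 0.07 (Cct2) with a median of -0.14. Bag3, which links HSP70 to autophagy, was at -1.28 (adjusted p = 0.0529) and Serpinh1, the collagen chaperone HSP47, at -0.66 (adjusted p = 0.0681).

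The count at 24 h depended on single arrays. It was 3 without Tnfr-/- 24 h replicate 1, 4 without Tnfr-/- 24 h replicate 2 or 3, 3 without Tnfr+/+ 24 h replicate 1 or 2, and 13 without the Tnfr+/+ array at 72 h that stood apart, which enters only through the shared spread. The share of all probe sets called was not counted in these fits, so their counts are not results about the members. Hsph1, Chordc1 and Dnaja1 were called without any 1 of the 7 arrays left out (highest adjusted p 0.00294, 0.00563 and 0.0333), while Hspa4l, Hspa8, Hspa12b, Hsp90aa1 and Ahsa1 each lost the call without some (highest adjusted p 0.118, 0.128, 0.144, 0.105 and 0.181). With only the 6 arrays compared in the fit, or with a 2-sample test of equal variance, 0 members passed after adjustment, and that test gave 22 members lower and 1 higher at an unadjusted p of 0.05, beside 6.89% and 7.48% of all probe sets.

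**Figure D3:**
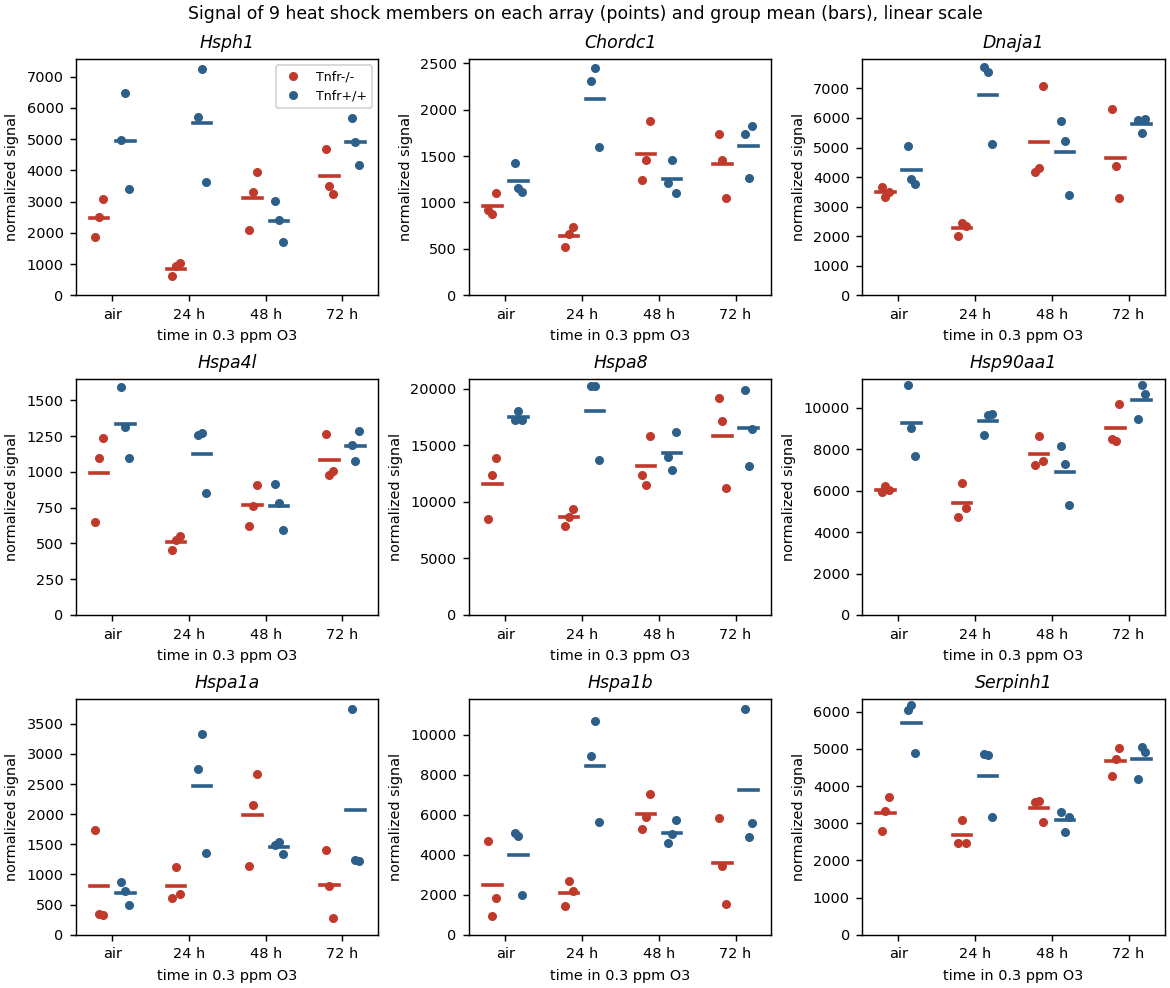
Normalized signal (linear scale from 0) of 9 members on each of 24 arrays (points) with the group mean (bar), by time in 0.3 ppm O3, Tnfr-/- in red left of Tnfr+/+ in blue. For Hsph1, Chordc1 and Dnaja1 the red points at 24 h all lie below the blue ones, while at 48 h the colours mix; Hspa1a and Hspa1b scatter widely within groups.

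At 48 h 0 members were called between Tnfr-/- and Tnfr+/+ lungs, beside 0.166% of all probe sets in either direction. At an unadjusted p of 0.05 Hspa9 and Hspd1 were higher in Tnfr-/- lungs and Hspa2 lower, beside 5.74% and 5.03% of all probe sets. The median member was at 0.15, with 29 of 35 above 0. Hsph1 had 2080, 3299 and 3952 in Tnfr-/- lungs and 3010, 2417 and 1721 in Tnfr+/+ lungs, with the groups mixed (log2 0.37, 95% interval -0.29 to 1.03). Chordc1 had 1243, 1456 and 1882 against 1211, 1454 and 1106 (log2 0.27, interval -0.19 to 0.73), and Dnaja1 had 4177, 4310 and 7089 against 5896, 5216 and 3391 (log2 0.10, interval -0.42 to 0.62). For these 3 genes the interval leaves out a difference of the size seen at 24 h.

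Whether the genotype difference itself changed between 24 and 48 h was tested as a contrast chosen after the values had been seen. It changed in 2 members, Hsph1 (by 3.05 ± 0.45 on the log2 scale, adjusted p = 0.0129) and Chordc1 (by 1.98 ± 0.31, adjusted p = 0.0255), which were the 2 probe sets called in that direction out of 20537 (0.00974%). Dnaja1 did not pass (1.66 ± 0.35, adjusted p = 0.199). The median member moved by 0.81, 32 of 35 upward. Hsph1 lost its call without Tnfr-/- 24 h replicate 1, Tnfr-/- 48 h replicate 2 or 3, or Tnfr+/+ 24 h replicate 1 or 2 (adjusted p up to 0.0687), and Chordc1 without any of these or Tnfr-/- 24 h replicate 2, Tnfr+/+ 48 h replicate 1 or 3 (up to 0.129), so that the count was 0 or 1 without these 8 arrays and 2 without any of the other 4.

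At 72 h 0 members differed between genotypes by adjusted p, with or without the array that stood apart, beside 0.161% of all probe sets, and Hspa1a and Hspa2 were lower at an unadjusted p of 0.05, beside 5.25% of all probe sets. Without that array 0 members were lower at that threshold, beside 3.43% of all probe sets. Hsph1 had 4694, 3516 and 3230 in Tnfr-/- lungs against 5667, 4900 and 4188 in Tnfr+/+ lungs (log2 -0.38, adjusted p = 0.669; without the array -0.27, adjusted p = 0.952), and Hspa1a had 1410, 803 and 282 against 3745, 1245 and 1218, where the 3745 belongs to that array (log2 -1.38, adjusted p = 0.429; without it -0.85, adjusted p = 0.874). Both genes overlapped between groups. Chordc1 had 1737, 1463 and 1051 against 1738, 1265 and 1827, and Dnaja1 had 6307, 4368 and 3286 against 5948, 5496 and 5971, each with the groups mixed (log2 -0.20 and -0.37, and -0.13 and -0.35 without the array). The change in the genotype difference from 24 to 72 h was called in 0 members, beside 0.0292% of all probe sets (Hsph1 2.30, adjusted p = 0.0959, and Chordc1 1.52, adjusted p = 0.101). Without the array that change was 2.41 for Hsph1 and 1.58 for Chordc1 (adjusted p = 0.126 and 0.148).

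**Figure D4:**
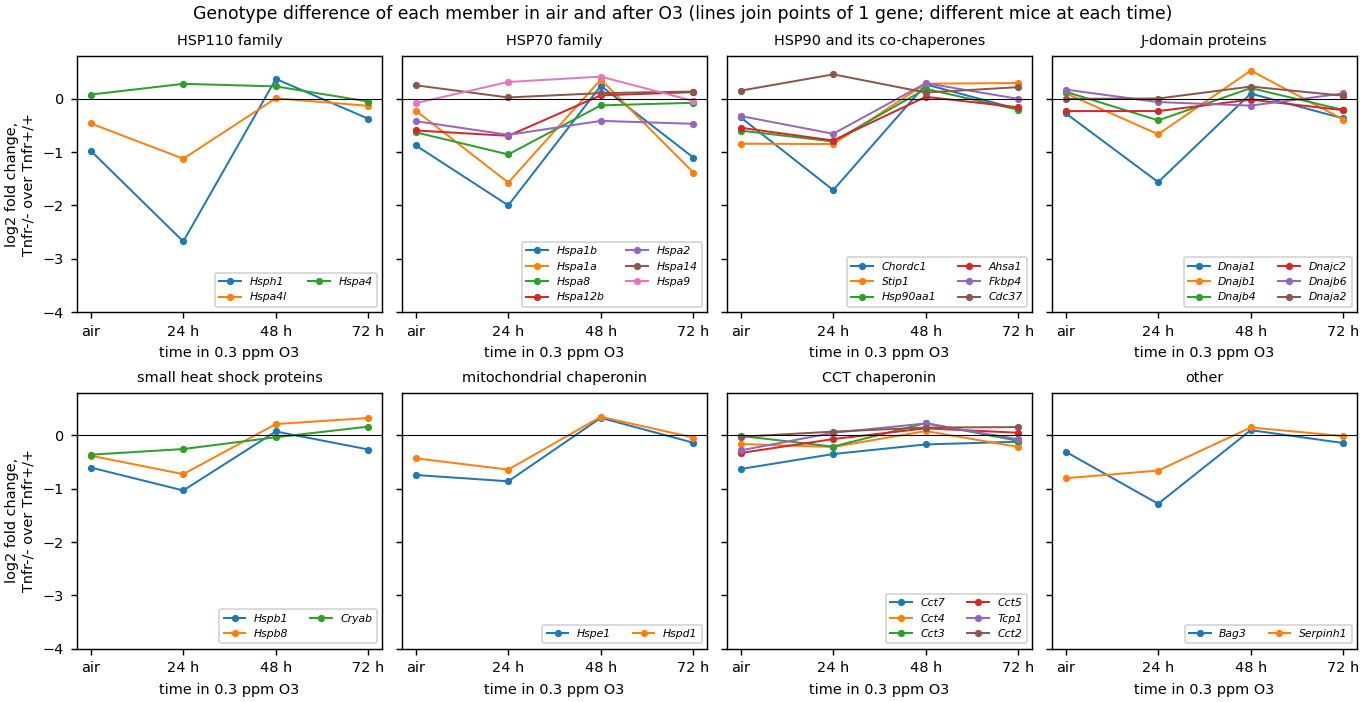
Log2 fold change of Tnfr-/- over Tnfr+/+ lungs (vertical axis) in air and after 24, 48 and 72 h of O3, 1 line per member, in 8 panels by family; each point compares 3 mice with 3 others. At 24 h 28 of 35 points lie below 0, deepest for Hsph1 at -2.68, and at 48 h 29 of 35 lie above it.

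In air, 29 of 35 members had a lower mean in Tnfr-/- lungs, with a median of -0.33, but 0 were called, beside 0.0876% of all probe sets. At an unadjusted p of 0.01 7 members were lower and 0 higher (Hsph1, Hspa12b, Hsp90aa1, Ahsa1, Serpinh1, Cct5 and Cct7), beside 1.18% of probe sets lower. The 3 Tnfr-/- arrays lay below the 3 Tnfr+/+ arrays in 14 members (40%, against 7.54% of all probe sets) and above in 0, against 7.82%. Hsp90aa1 had 5920, 6212 and 6030 in Tnfr-/- lungs and 11080, 9009 and 7688 in Tnfr+/+ lungs (log2 -0.60, adjusted p = 0.271), and Serpinh1 had 2779, 3339 and 3696 against 6043, 6168 and 4900 (log2 -0.80, adjusted p = 0.0729), both separate. Hsph1 had 1866, 2501 and 3082 against 4971, 6475 and 3389 (log2 -0.97, adjusted p = 0.401), with a gap between the groups. Chordc1 had 920, 874 and 1103 against 1422, 1156 and 1116, and Dnaja1 had 3676, 3329 and 3486 against 5043, 3945 and 3769, closer but still separate.

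The interaction tests, which ask whether O3 moved a member differently in the genotypes, called 0 members at 24, 48 or 72 h, beside 0.00974%, 0% and 0.00487% of all probe sets. At 24 h 3 members passed an unadjusted p of 0.01 with a lower O3 response in Tnfr-/- lungs, beside 0.657% of all probe sets: Hsph1 (log2 -1.70, 95% interval -2.63 to -0.77), Chordc1 (-1.36, -2.02 to -0.71) and Dnaja1 (-1.29, -2.03 to -0.55), with adjusted p of 0.41, 0.307 and 0.441. At 48 h 6 members passed in the other direction, beside 0.682% (Hsph1, Hspa12b, Hsp90aa1, Hspd1, Serpinh1 and Cct5).

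Against air of the same genotype, 1 member was called lower and 0 higher in Tnfr-/- lungs after 24 h of O3, beside 0.375% and 0.726% of all probe sets. The 3 air arrays of a genotype serve all 3 of its comparisons with O3, which are therefore not independent. Hsph1 fell to 606, 926 and 1026 after O3, against 1866, 2501 and 3082 in air, with separate groups (2.92-fold, log2 -1.55 ± 0.32, adjusted p = 0.0179). The call was lost without Tnfr-/- air replicate 2 or 3 or Tnfr-/- 24 h replicate 1 (adjusted p up to 0.101), so that the count was 0 without any of these 3, 2 without the array that stood apart and 3 without Tnfr-/- air replicate 1. Chordc1 was at -0.60 and Dnaja1 at -0.63 (adjusted p = 0.24 and 0.283), both with separate groups. Hspa1a and Hspa1b were at 0.41 and 0.02.

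The air group of Tnfr-/- mice was uneven for the inducible genes. Replicate 1 had 1736 for Hspa1a, 4679 for Hspa1b and 2367 for Dnajb1, where replicates 2 and 3 had 345 and 332, 949 and 1831, and 952 and 851. The same array was the lowest of its group for Hsph1 (1866), Hspa4l (649) and Hspb1 (7538). The comparisons of Tnfr-/- lungs with air rest on this array as 1 of 3 controls. Without it, the counts of members called against air came to 3 after 24 h, 5 after 48 h and 1 after 72 h, in place of 1, 2 and 0. The share of all probe sets called without it was not counted. Cirbp, described below, was also uneven in these 3 mice, at 513, 189 and 207.

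In Tnfr+/+ lungs 0 members were called after 24 h of O3 against air, beside 0.0828% of all probe sets in either direction, yet several inducible members had higher signals. At an unadjusted p of 0.01 Dnajb1 and Chordc1 were higher and Hspa12b lower, beside 1% and 0.721% of all probe sets. All 3 O3 arrays lay above all 3 air arrays in 8 members (22.9%, against 5.84% of all probe sets): Hspa1a, Hspa1b, Hspa4, Dnaja1, Dnajb1, Dnajb4, Chordc1 and Bag3. Hspa1a had 2744, 3322 and 1348 after O3 and 872, 731 and 495 in air (log2 1.76 ± 0.63, adjusted p = 0.61), Dnajb1 had 2609, 2868 and 1955 against 1196, 1263 and 1024 (log2 1.08 ± 0.34, adjusted p = 0.505), and Chordc1 had 2308, 2449 and 1593 against 1422, 1156 and 1116 (log2 0.77 ± 0.22, adjusted p = 0.422). Hsph1 did not share this, at 5703, 7234 and 3637 against 4971, 6475 and 3389, 2 sets of values that overlap almost entirely (log2 0.15).

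After 48 h of O3 2 members were called higher in Tnfr-/- lungs against air, beside 2.6% of all probe sets. Hspa4 rose to 961, 814 and 926, against 598, 440 and 489 in air (log2 0.83 ± 0.21, adjusted p = 0.03), and Hspa9 rose to 900, 1231 and 1146, against 884, 687 and 631 (log2 0.58 ± 0.15, adjusted p = 0.0352). Both had separate groups, but Hspa4's other probe sets gave -0.09 and -0.28, and of Hspa9's others 1 gave 0.24 and 2 dim ones 2.31 and -2.03, so that both calls were lost with the mean over probe sets. Hspa4 lost its call without Tnfr-/- air replicate 2 or 3 or any Tnfr-/- 48 h array (adjusted p up to 0.12), and Hspa9 without Tnfr-/- air replicate 2 or 3 or Tnfr-/- 48 h replicate 2 or 3 (up to 0.17); the count was 0 without these last 4, 1 without Tnfr-/- 48 h replicate 1 and 5 without Tnfr-/- air replicate 1. All 3 O3 arrays lay above all 3 air arrays in 14 members (40%, against 15.6% of all probe sets). Hspa1a, Hspa1b and Dnajb1 were at 1.68, 1.58 and 1.11 without a call (adjusted p = 0.153, 0.106 and 0.0803).

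In Tnfr+/+ lungs at 48 h 2 members were called lower, beside 0.273% of all probe sets. Hspa12b fell to 272, 263 and 286, against 496, 514 and 496 in air, 2 narrow and separate groups (log2 -0.88 ± 0.15, adjusted p = 0.00415), and was called without any 1 array. Serpinh1 fell to 3308, 2750 and 3176, against 6043, 6168 and 4900 (log2 -0.89 ± 0.17, adjusted p = 0.01), and lost the call without Tnfr+/+ air replicate 2 or Tnfr+/+ 48 h replicate 2 (adjusted p up to 0.0599), which left a count of 1. The endothelial marker Cdh5 also fell in this comparison (log2 -0.59, adjusted p = 0.0362). The other 7 of the 8 lung markers, the endothelial Pecam1 among them, were not called, and the median of the 8 was -0.05. An influence of endothelial cells on Hspa12b was not tested. All 3 O3 arrays lay below all 3 air arrays in 11 members (31.4%, against 8.33% of all probe sets). Among them Hsph1 was at -1.04 (adjusted p = 0.136), with 3010, 2417 and 1721 after O3 against 4971, 6475 and 3389 in air. The O3 arrays lay above all 3 air arrays in 5 members (14.3%): Hspa1a, Hspa4, Dnajb1, Dnajb6 and Bag3. Of all members 0 were called higher. The share of all probe sets was not counted for either upward rule, so the 5 are not a result about the members. Hspa1a had 1487, 1541 and 1344 after O3 against 872, 731 and 495 in air. The median member was at -0.12, with 16 of 35 above 0.

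At 72 h 0 members were called against air in either genotype, beside 3.96% of all probe sets in Tnfr-/- lungs and 3.1% in Tnfr+/+ lungs; the count in Tnfr-/- lungs was 2 without the array that stood apart and 1 without Tnfr-/- air replicate 1. In Tnfr-/- lungs 32 of 35 members had a log2 fold change above 0, with a median of 0.35 against -0.03 over all probe sets, and 17 had all 3 O3 arrays above all 3 air arrays (48.6%, against 12.6% of all probe sets). Hsp90aa1 led them by p, with 8506, 8375 and 10180 after O3 and 5920, 6212 and 6030 in air (log2 0.57, adjusted p = 0.0566). In Tnfr+/+ lungs the median member was at 0.12, with or without the array that stood apart.

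**Figure D5:**
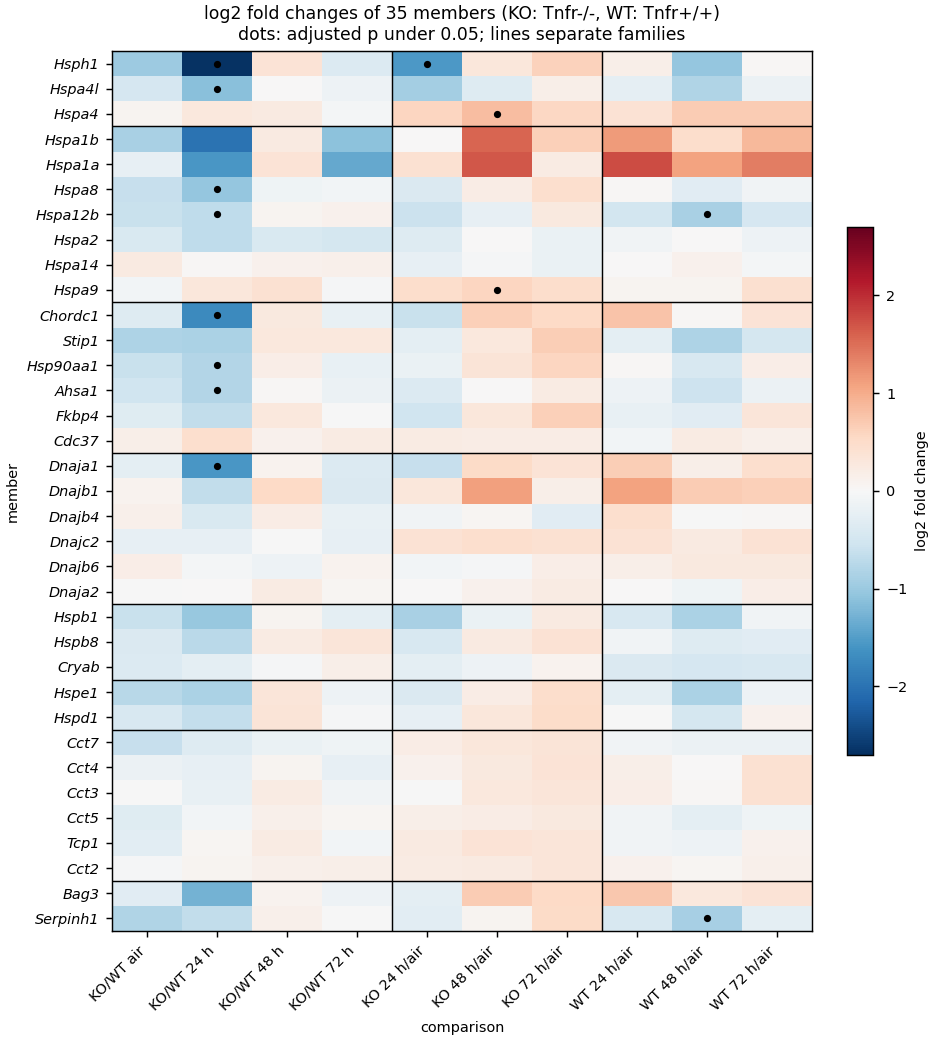
Log2 fold changes of 35 members (rows, by family, lines between families) in 10 comparisons (columns: genotype in air and at 24, 48 and 72 h, then O3 over air in each genotype; KO is Tnfr-/-, WT is Tnfr+/+), blue lower and red higher, with a dot where the adjusted p was under 0.05. Dots gather in the 24 h genotype column, which holds 8 of the 13.

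From 24 to 48 h of O3, 3 members rose within Tnfr-/- lungs, beside 0.287% of all probe sets. Hsph1 was 3.61-fold higher at 48 h (log2 1.85 ± 0.32, adjusted p = 0.0138), Chordc1 2.37-fold (log2 1.24 ± 0.22, adjusted p = 0.0171) and Dnaja1 2.23-fold (log2 1.16 ± 0.25, adjusted p = 0.0499). Dnaja1 lost its call without any 1 of the arrays left out in turn, while Hsph1 and Chordc1 were lost without Tnfr-/- 48 h replicate 2 or 3 or Tnfr-/- 24 h replicate 1, and Chordc1 also without Tnfr-/- 24 h replicate 2 (adjusted p up to 0.106 for each), so that the count was 0 without Tnfr-/- 24 h replicate 1 or Tnfr-/- 48 h replicate 2 or 3, and 1 without Tnfr-/- 24 h replicate 2. All 3 arrays at 48 h lay above all 3 at 24 h in 21 members (60%, against 9.54% of all probe sets), and 34 of 35 had a higher mean. Within Tnfr+/+ lungs the same step called 0 members, beside 0.2% of all probe sets, and 30 of 35 means were lower at 48 h (median -0.32). From 48 to 72 h 0 members were called in either genotype, beside 0.00487% of all probe sets in Tnfr-/- lungs and 0% in Tnfr+/+ lungs. These comparisons share groups with those above and are not independent of them.

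The other members that the study names or that scatter most are given here over time. Hspa1b in Tnfr-/- lungs had 4679, 949 and 1831 in air, 1431, 2703 and 2185 after 24 h, 5279, 5872 and 7031 after 48 h, and 5845, 3446 and 1544 after 72 h. In Tnfr+/+ lungs it had 5069, 4940 and 1995 in air, 8947, 10670 and 5650 after 24 h, 4589, 5027 and 5716 after 48 h, and 11300, 4879 and 5591 after 72 h, the 11300 being on the array that stood apart. The genotypes overlap for Hspa1b in air, at 48 h and at 72 h, and are separate at 24 h. Hspb1 ranged from 7538 to 15580 in air, 5836 to 6655 at 24 h, 9020 to 11260 at 48 h and 13240 to 13430 at 72 h in Tnfr-/- lungs. In Tnfr+/+ lungs its ranges were 12130 to 22650, 10280 to 13970, 7923 to 12130 and 12130 to 27740, again with the highest value on the array that stood apart. For Hspb1 the groups were separate between genotypes at 24 h, with the lower values in Tnfr-/- lungs. Without the array that stood apart they were separate at 72 h in the other direction, where the other Tnfr+/+ arrays had 12130 and 12160. That difference was small and not called (log2 0.13, adjusted p = 0.971). Hspd1 ranged from 2827 to 3910 in air, 2741 to 3168 at 24 h, 3793 to 4529 at 48 h and 4220 to 5377 at 72 h in Tnfr-/- lungs, against 4146 to 4926, 3680 to 5145, 2811 to 3877 and 4624 to 5391 in Tnfr+/+ lungs. Stip1 ranged from 619 to 1168 in air, 653 to 731 at 24 h, 907 to 1104 at 48 h and 1222 to 1431 at 72 h in Tnfr-/- lungs, against 1108 to 2150, 999 to 1416, 708 to 935 and 541 to 1609 in Tnfr+/+ lungs. Hspd1 was separate in air and at 24 h with the lower values in Tnfr-/- lungs, and Stip1 at 24 h. The 541 of Stip1 was on the array that stood apart, and without it Stip1 was separate at 72 h too, with 1511 and 1609 on the other Tnfr+/+ arrays.

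Among listed chaperones outside the members, few were called at 24 h. Of 52 further chaperones and co-chaperones listed, 47 were measured and 1 was called between genotypes, Dnaja4, a J-domain protein, which was lower in Tnfr-/- lungs (log2 -0.81 ± 0.19, adjusted p = 0.0409), and their median was -0.08. Of 16 chaperones of the endoplasmic reticulum, such as Hspa5 and Calr, 0 were called and the median was -0.27. At 72 h against air, St13, which binds HSP70, rose in Tnfr-/- lungs (log2 0.94, adjusted p = 0.0254), and Dnajc9, a J-domain histone chaperone, rose in both (log2 0.53 in Tnfr-/- and 0.65 in Tnfr+/+ lungs, adjusted p = 0.0383 and 0.0135).

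Body temperature and the clock are known to act on heat shock genes, and a few of their marker genes were on the arrays. Cirbp, an RNA-binding protein made at lower temperature, had 593, 495 and 504 in Tnfr-/- lungs against 280, 376 and 425 in Tnfr+/+ lungs at 24 h, with separate groups but no call (log2 0.57, adjusted p = 0.382). Dbp, a clock output gene, had 498, 471 and 561 against 156, 204 and 149 at 24 h (log2 1.60, adjusted p = 0.00225), and it was also higher in Tnfr-/- lungs in air (log2 1.57, adjusted p = 0.00687) and at 72 h (log2 1.62, adjusted p = 0.00554). Nr1d1, a clock repressor, was higher at 24 h (log2 1.11, adjusted p = 0.025), and 0 of the other 12 measured clock genes were called then. The median of all 14 measured clock genes at 24 h was -0.26, opposite to these 2. At 72 h Tef was also called higher (log2 1.03, adjusted p = 0.0363) and Arntl lower (log2 -1.47, adjusted p = 0.0435) in Tnfr-/- lungs. The 72 h values of clock genes include the array that stood apart. The part of temperature or time of day in the heat shock values was not tested.

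Markers of other cells and of RNA integrity also differed between genotypes at 24 h, some of them at other times too. B cell markers were called higher in Tnfr-/- lungs in 5 of 7 (Cd79a, Cd79b, Ms4a1, Cd22 and Fcer2a), with summed signals of 4883 to 6215 against 2201 to 2572 in Tnfr+/+ lungs. Liver markers had 0 of 17 called and summed 1476 to 1922 against 2300 to 2589, and cardiac muscle markers 0 of 10 with 5831 to 9017 against 9380 to 12830. The liver sums were also separate in air (1711 to 2197 against 2808 to 4352) and at 48 h (1553 to 1695 against 2262 to 4900), and overlapped at 72 h. None of the B cell, liver and cardiac muscle markers was at 0 on any array. The lowest single liver values at 24 h were 5.48 in Tnfr-/- and 3.58 in Tnfr+/+ lungs, below the 20th percentile of the arrays (47.3 to 59.4). The Gapdh 3' to 5' ratio at 24 h was 1.12, 1.03 and 1.22 in Tnfr-/- lungs and 1.53, 1.74 and 1.54 in Tnfr+/+ lungs. At 48 h it differed in the same direction by less (1.08, 1.01 and 1.13 against 1.32, 1.30 and 1.33). The beta-actin 3' to 5' ratio at 24 h was 1.1, 1.01 and 1.16 in Tnfr-/- lungs against 1.47, 1.95 and 1.31 in Tnfr+/+ lungs. At 48 h it was 1.1, 1.03 and 1.04 against 1.21, 1.29 and 1.13. Neutrophil, alveolar macrophage, T cell, ciliated cell, skeletal muscle, smooth muscle and dividing cell markers had 0 called at 24 h. The summed signals of alveolar macrophage markers were still separate, at 13090 to 16360 in Tnfr-/- against 10520 to 11720 in Tnfr+/+ lungs. Those of skeletal muscle markers were separate in the other direction, at 824.6 to 904.8 against 934.9 to 975.3. The sums of the other lists named here overlapped. At 48 h against air, where Hspa4 and Hspa9 rose in Tnfr-/- lungs, 7 of 7 markers of dividing cells rose, with summed signals of 2311 to 3401 against 765 to 958, and 2 of 7 macrophage markers. The part of these cells and of RNA integrity in the heat shock values was not tested.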

How the data were processed

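Left-lung RNA of 24 mice was hybridised to Affymetrix MOE430A arrays, 1 mouse an array. The authors deposited 1 linear intensity per probe set (22644), made per the submitters' processing notes with MAS5 in Affymetrix Expression Console; each array's mean after 2% trimming at both ends was 501. Total signal was 14900000 to 16100000 an array, and the number of arrays limits the precision. The intensities were quantile normalized, set to at least 1, taken to log2 and kept where at or above the array's 20th percentile on at least 1 array (20537 probe sets, 11597 genes; 64 control probe sets left out). A mean per group was fitted with limma 3.58.1 in R 4.3.3 (16 residual and 2.38 prior degrees of freedom), with 17 comparisons and 2 added after the values were seen; the code was tested on simulated data. Intervals and SE are those of the fit.

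Groups came from the sample labels; replicate numbers did not pair the mice (correlations of same-numbered deviations -0.078 to 0.115, over 0.1 in every pair of 0 of 10 comparisons). Probe sets were named by the array annotation (20351 pointed to 1 gene, for 20322 of which a current symbol was found by Entrez ID, 691 to several and 1602 to none). Called members have their value on every array in the comparison described; other groups are given as ranges or left out. Members and lists were chosen with earlier results of these data known. Alternatives were the deposited scale, cyclic loess, no filter, a floor of 32, a replicate block, array weights and the mean over probe sets. Others were a fit of only the arrays compared, a 2-sample test of equal variance and each array left out. The study's methods name a t-test for O3 against air and for genotypes in air. Its legends call that test moderated, so the 2-sample test here is not the study's own. For genotypes after O3 the methods name an ANOVA.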

Additional observations from a re-analysis of the deposited data

Results flagged for a closer look

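In 2 members the genotype difference was not the same at 24 and 48 h by a test of the difference itself. For Hsph1 the log2 fold change of Tnfr-/- over Tnfr+/+ lungs was 3.05 higher at 48 h than at 24 h, and for Chordc1 it was 1.98 higher (limma, adjusted p = 0.0129 and 0.0255, 3 mice in each of 4 groups). Both contrasts were chosen after the values had been seen, and the cause was not tested.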

How the results depend on the processing

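Counts of members called depended most on how the spread was estimated. With only the arrays compared in the fit, the counts were 0 in place of 1 (Tnfr-/- 24 h over air), 2 (Tnfr-/- 48 h over air), 2 (Tnfr+/+ 48 h over air), 8 (genotypes at 24 h), 3 (Tnfr-/- 48 h over 24 h) and 2 (genotype difference, 48 minus 24 h), and a 2-sample test of equal variance gave 0 for the first 5. Array weights gave 5, 6 and 4 for Tnfr-/- 24, 48 and 72 h over air, 1 for the genotypes in air and 13 at 24 h. The share of all probe sets called was not counted with array weights or with arrays left out. A higher count there is therefore not a result about the members. The mean over probe sets gave 2 and 1 for Tnfr-/- 24 and 48 h over air. The replicate block gave 1 for Tnfr-/- 72 h over air, 1 for Tnfr+/+ 72 h over air and 1 for the genotype difference 48 minus 24 h; it moved no other count by over 1.5 times. Leaving out arrays gave 0 to 3, 0 to 5 and 0 to 2 for Tnfr-/- 24, 48 and 72 h over air, 1 to 3 for Tnfr+/+ 48 h over air, 3 to 13 for the genotypes at 24 h, 0 to 2 for Tnfr-/- 48 h over 24 h and 0 to 2 for the genotype difference. None of the member values recomputed under these settings (called members, and Hspa1a, Hspa1b, Hspb1, Hspd1 and Stip1 between genotypes at 24 h) changed direction. At an unadjusted p of 0.05 the 2-sample test gave 22 members lower and 1 higher between genotypes at 24 h, beside 6.89% and 7.48% of all probe sets. Of the single-member values recomputed under these settings, 264 kept their side of the adjusted p threshold, 109 lost a call and 5 gained one. With 3 arrays a group, the number of arrays limits what can be called.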
